A study of Homo sapiens with 4 samples.

Results

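The stretch of chromosome 11 that holds NEAT1 and MALAT1, the genes of 2 abundant nuclear long non-coding RNAs, carried 38 TEAD4 peaks in MKN28 and 16 TEAD4 peaks in SNU216. These were 54 of the 51017 peaks called in both lines together. A peak was counted when its midpoint lay on chromosome 11 from 65000000 to 65500000 in hg19, and the NEAT1 start at 65190269 and the MALAT1 start at 65265233 served as landmarks. This stretch was chosen from the same 2 peak lists because both held many peaks there, so the peak counts, overlaps and scores below describe it and carry no test. The data came from chromatin immunoprecipitation with an antibody against TEAD4 followed by sequencing (ChIP-seq), which maps where a DNA-binding protein sits on the genome. MKN28 and SNU216 are human gastric cancer cell lines, neither treated nor genetically altered per the labels, and cell line registers list MKN28 as misidentified with another gastric line. Each line gave 1 TEAD4 library, and its peaks were called relative to 1 library of input DNA from that line. No value below therefore has a replicate error, and without read counts in the files the depth is unknown. Cytogenetic bands of hg19 placed the whole window in 11q13.1.

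TEAD4 belongs to the TEAD family of transcription factors, which bind DNA and recruit the co-activators YAP and TAZ, the outputs of the Hippo pathway. TEAD proteins are known to occupy enhancers more often than promoters, frequently beside AP-1 factors. NEAT1 RNA is the scaffold of paraspeckles, nuclear bodies that retain RNA and proteins, and exists as a short and a long isoform that share their start. MALAT1 RNA collects at nuclear speckles, which store splicing factors, and a small RNA, mascRNA, is cut from its 3' end. In the RefSeq gene order of GRCh38.p14, the protein-coding genes FRMD8 and SLC25A45 precede NEAT1. That order goes by start position only, and 4 genes come after NEAT1 and before MALAT1 in it, namely MIR612, FAUP4, ENEMAL and LINC02736. Gene ends were not used, so a gene in this order may lie within or overlap another. The next entry after MALAT1 is its antisense RNA TALAM1. Peaks were not assigned to these neighbours, because that table is on another build than the peaks.

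The RefSeq table of promoter windows held 2 windows for MALAT1, on the plus strand of GRCh38.p14, and they are shown because the peak of both lines nearest to the MALAT1 start lay 858 bp after it in MKN28 and 1079 bp after it in SNU216. Each has 250 bases before an annotated start in lower case and 50 bases from that start on in capitals.
MALAT1 window 1, chr11:65497488-65497787: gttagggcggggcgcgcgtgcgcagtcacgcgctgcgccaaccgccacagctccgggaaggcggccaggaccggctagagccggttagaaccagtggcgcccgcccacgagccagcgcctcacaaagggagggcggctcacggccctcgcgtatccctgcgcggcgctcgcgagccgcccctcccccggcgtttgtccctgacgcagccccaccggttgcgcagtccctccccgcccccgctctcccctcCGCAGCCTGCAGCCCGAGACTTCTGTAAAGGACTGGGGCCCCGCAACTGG
MALAT1 window 2, chr11:65498795-65499094: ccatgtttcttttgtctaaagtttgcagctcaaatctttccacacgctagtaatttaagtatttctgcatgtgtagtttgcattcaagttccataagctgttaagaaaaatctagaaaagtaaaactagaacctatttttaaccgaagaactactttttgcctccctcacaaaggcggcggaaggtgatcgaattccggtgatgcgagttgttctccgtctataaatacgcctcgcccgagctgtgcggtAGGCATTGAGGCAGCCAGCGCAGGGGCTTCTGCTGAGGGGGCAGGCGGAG
The start in window 2 lies 1307 bases after the start in window 1. Window 1 is 73.7% G and C and window 2 is 46.0%, beside a median of 58.7% over the 35116 windows of the table. The letters GGAATG, a core recognised by TEAD proteins, were searched on both strands and occurred in neither window. They occurred in 14.0% of all windows. The letters TGANTCA, the core of an AP-1 site, which reads alike on both strands, were also in neither window and in 7.71% of all windows. The searches cover these windows only, and whether either window lies under a peak was not tested.

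TEAD4 peaks were packed closely here in both lines. Set among tiles of 500 kb over chromosomes 1 to 22 and X, this tile held 38 MKN28 and 16 SNU216 peaks, against 5 and 1 in the median tile. A count of at least 38 MKN28 peaks was found in 7 of the 6087 tiles (0.115%), and a count of at least 16 SNU216 peaks in 13 tiles (0.214%). Both counts were reached together in 4 tiles, this one included. Neighbouring midpoints were a median of 6.48 kb apart in MKN28 and 9.53 kb apart in SNU216, where the whole lists had medians of 26.5 kb and 80.4 kb. MKN28 peaks covered 5.80% of the window and 0.721% of hg19, and SNU216 peaks covered 1.47% of the window and 0.167% of hg19. The tile was picked for being dense, so its place among the tiles is no finding.

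**Figure D1:**
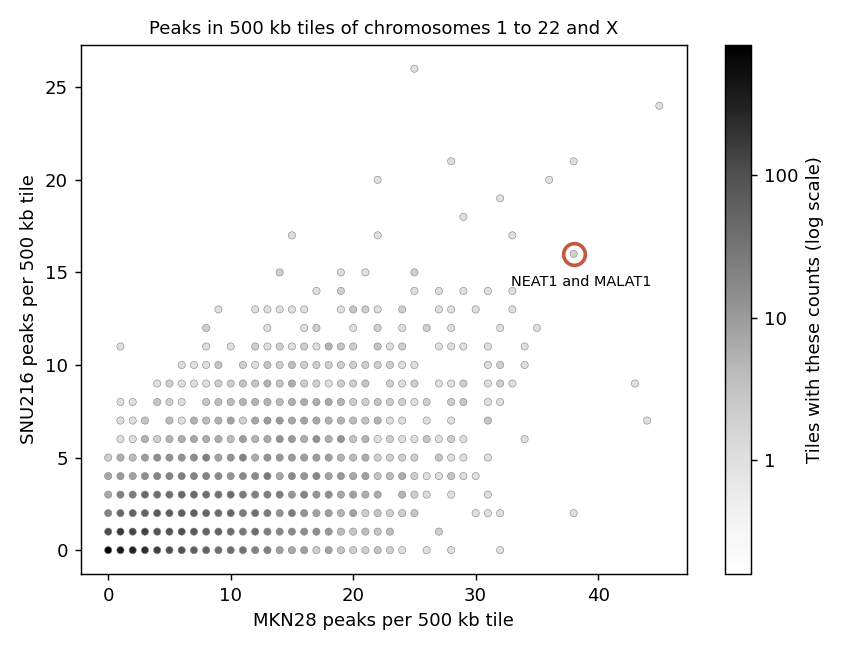
Number of TEAD4 peaks per 500 kb tile in MKN28 (horizontal axis) and SNU216 (vertical axis), over 6087 tiles, where the shade of a point gives the number of tiles with those counts on a log scale. The ring marks the point of the NEAT1 and MALAT1 tile (38 MKN28 and 16 SNU216 peaks), which 2 tiles share. It lies near the upper end of the MKN28 axis, where the highest count was 45, and below 11 tiles on the SNU216 axis, where the highest was 26.

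The peaks were unevenly spread along the window, with the highest density between the 2 starts. These starts are 74964 bp apart, and the stretch between them held 11 MKN28 peaks and 5 SNU216 peaks, or 14.7 and 6.67 peaks per 100 kb. The 190 kb before the NEAT1 start held 13 MKN28 and 7 SNU216 peaks, or 6.83 and 3.68 per 100 kb. The 235 kb after the MALAT1 start held 14 MKN28 and 4 SNU216 peaks, or 5.96 and 1.70 per 100 kb. The order of the last 2 stretches was the same in both lists, with the lowest density after MALAT1.

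**Figure D2:**
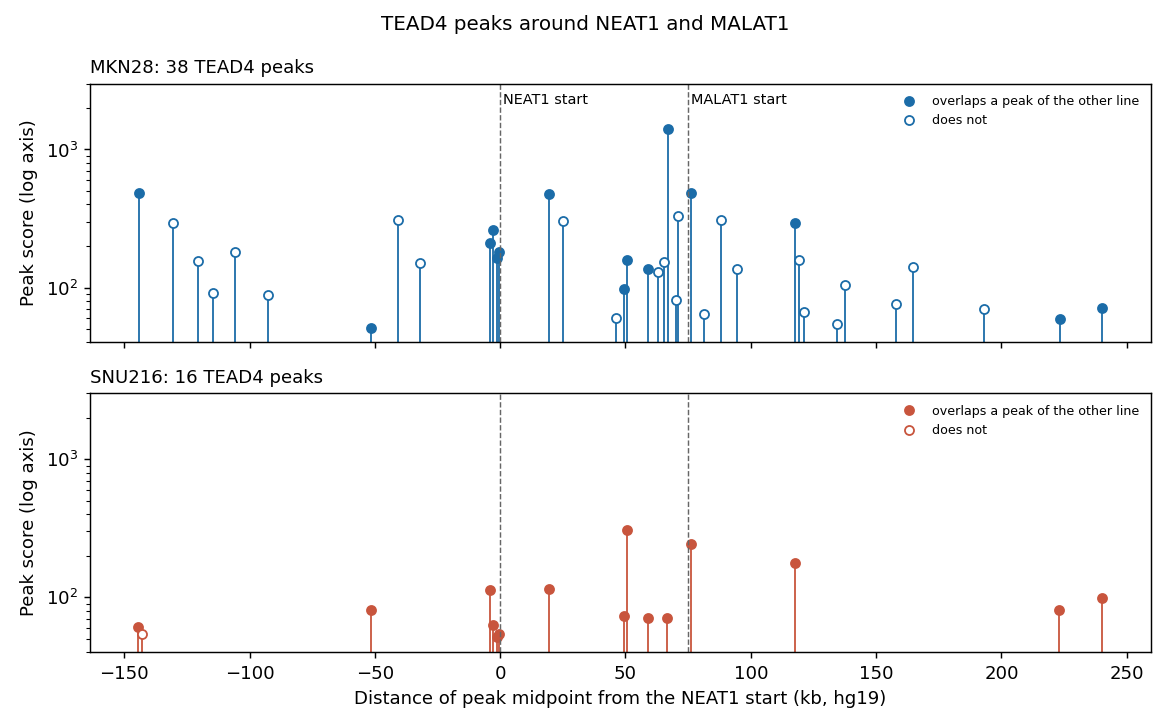
Score of each TEAD4 peak (log axis, from the authors' peak caller) against the distance of its midpoint from the NEAT1 start in kb, for MKN28 above and SNU216 below. Filled points overlap a peak of the other line, open points do not, and dashed lines mark the NEAT1 and MALAT1 starts. All but 1 of the 16 SNU216 points are filled, and the tallest MKN28 point (1415) stands just before the MALAT1 start.

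Nearly all SNU216 sites of the window were also called in the longer, full MKN28 list. Overlap means at least 1 shared bp. Of the 38 MKN28 peaks, 15 overlapped an SNU216 peak (39.5%, exact 95% interval 24.0 to 56.6), beside 17.1% of the whole MKN28 list. Of the 16 SNU216 peaks, 15 had an MKN28 partner (93.8%, 69.8 to 99.8), beside 59.3% of the whole SNU216 list. With the MKN28 list cut to its 11540 highest-scoring peaks, the length of the SNU216 list, 8 of the 16 (50%) had a partner. This share thus moves with how many MKN28 peaks are kept. The share of the whole SNU216 list under that cut is not given here. The other shares of this paragraph use the full MKN28 list and are no baseline for the 50%. The intervals are Clopper-Pearson intervals, cover counting error only and treat neighbouring peaks as independent, which they are not. Among all 10025 SNU216 peaks whose score lay within the range found here, 56.8% overlapped. Among the 134 tiles with at least 10 SNU216 peaks the median share was 69.2%, and 7 tiles (5.22%), this one included, reached 93.8% or more. The 15 overlaps were pairs of 1 peak with 1 peak. The single SNU216 peak without a partner, at chr11:65047233-65047508 with a score of 53.96, lay 859 bp from the nearest MKN28 peak. Where a list has no peak, the signal did not pass the authors' threshold, and TEAD4 may still have been bound.

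Within its own list, the median MKN28 peak of the window ranked above the middle and the median SNU216 peak below it. The score of the authors' peak caller depends on depth, so each peak was placed within its own list by the percentage of that list with a lower score. The MKN28 scores had a lowest value of 50.5, a median of 153 and a highest of 1415, against a median of 99.8 over the whole list. SNU216 scores had a lowest value of 51.7, a median of 77.1 and a highest of 309, against a median of 84.7 over the whole list. Of the 38 MKN28 peaks, 25 scored 100 or more (65.8%, beside 49.9% of the list), as did 5 of the 16 SNU216 peaks (31.2%, beside 42.2% of the list). The median peak stood above 67.1% of the MKN28 list and above 44.0% of the SNU216 list. The SNU216 median thus lay below that of its whole list, and the MKN28 median above that of its own. Median widths were 704 bp in MKN28 and 450 bp in SNU216, beside 525 and 408 bp over the whole lists.

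A row of 4 peaks led up to the NEAT1 start in both lines, each with 1 partner in the other. In MKN28 the row ran from 4421 bp before the start to 219 bp after it, a span of 4641 bp, with scores of 210, 262, 163 and 182 in genome order. In SNU216 the row ran from 4291 to 347 bp before the start, a span of 3945 bp, with scores of 113, 62.5, 51.7 and 54.5. Successive midpoints were 1293.5, 1301.5 and 1052.5 bp apart in MKN28 and 1289, 1280.5 and 902 bp apart in SNU216. The last of these spacings differed most between the lines. Similar spacing follows from the overlap of the partner peaks and adds nothing to it. The MKN28 scores lay above 69.3 to 81.6% of the MKN28 list. The SNU216 scores lay above 62.9% of the SNU216 list for the first peak and above 3.41 to 27.6% for the other 3. Such rows of 4 peaks within 5 kb were rare: 69 places in MKN28 held one, with 0.740% of its peaks, and 25 places in SNU216, with 0.919% of its peaks. Only 3 of the SNU216 places overlapped an MKN28 place, and this was one of them. The number of peaks and the span that define a row were set after this row had been seen.

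The NEAT1 start itself lay inside an MKN28 peak, chr11:65189278-65190488, with a score of 182 that was higher than 72.6% of the list. This peak was 1211 bp wide and reached from 991 bp before the start to 219 bp after it. The nearest SNU216 peak, chr11:65189580-65189922, was 343 bp wide, lay inside the MKN28 peak and ended 347 bp before the start. Its score of 54.5 was higher than 11.3% of the SNU216 list, close to the lowest score that was called. A called peak thus covered the NEAT1 start in MKN28, while in SNU216 the peak stopped short of it. The summit of either peak is not in the lists.

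Past the NEAT1 start, both lines lacked a peak for about the same distance. Counted from the end of the row of 4 peaks, the peak-free stretch was 18.9 kb long in MKN28 and 19.7 kb in SNU216. The row ended 219 bp after the start in MKN28 and 347 bp before it in SNU216. The peak-free stretch ended in both at 1 site, from 19.2 to 20.1 kb after the start in MKN28 and from 19.3 to 19.8 kb in SNU216. That site was among the strongest of the window in both, with an MKN28 score of 479 at chr11:65209433-65210327 and an SNU216 score of 116 at chr11:65209617-65210057. It was the fourth of the 38 MKN28 peaks and the fourth of the 16 SNU216 peaks by score. Within the whole lists, its score lay above 91.7% of the MKN28 list but above only 64.1% of the SNU216 list. An MKN28 peak at chr11:65214926-65215791, which scored 306, followed with no SNU216 partner. Gene ends on hg19 were not used here, so no peak was placed in or beyond the body of NEAT1.

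**Figure D3:**
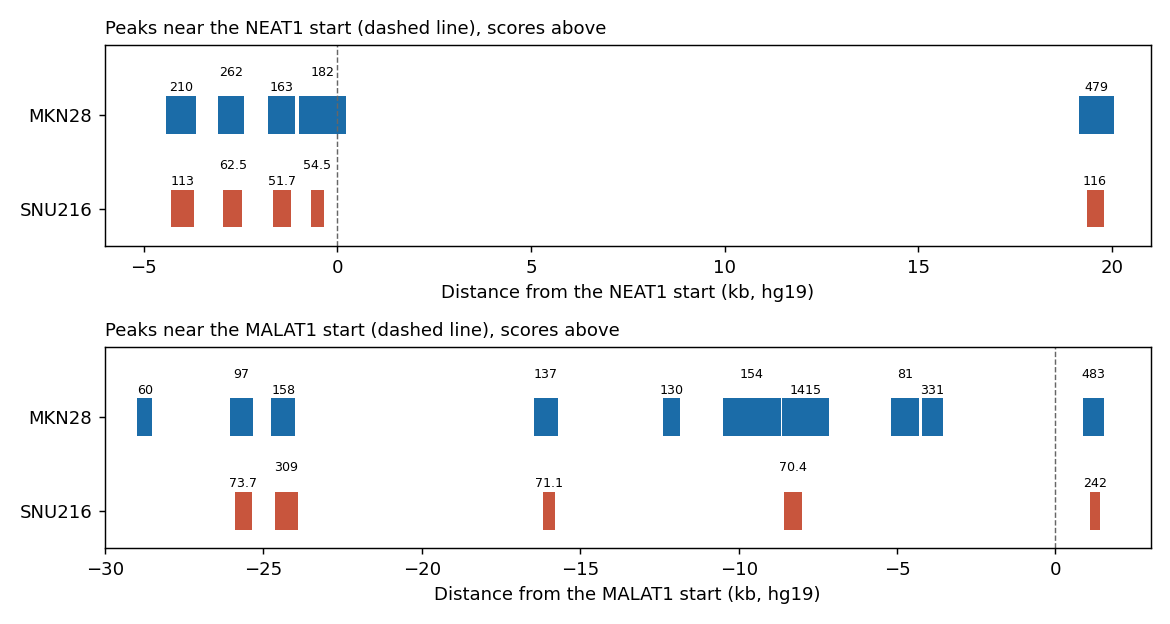
Extent of the TEAD4 peaks in MKN28 (upper row) and SNU216 (lower row) around the NEAT1 start and the MALAT1 start, as distance from the start in kb, with the peak score printed above each box. The 4 peaks before the NEAT1 start pair up between the lines, and in both lines the peak nearest to the MALAT1 start lies after it.

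TEAD4 peaks crowded the approach to MALAT1 in both lines. From 65236248 to 65266778, a stretch of 30.5 kb that reaches just past the MALAT1 start, MKN28 had 10 peaks and SNU216 had 5, and all 5 of the SNU216 peaks had an MKN28 partner. MKN28 peaks covered 29.1% of this stretch and SNU216 peaks covered 8.50%. Its limits were set after the peaks had been seen.

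The strongest MKN28 peak of the window and the strongest SNU216 peak of the window were different sites in this stretch. The MKN28 peak at chr11:65256594-65258096, from 8639 to 7137 bp before the MALAT1 start, scored 1415 and ranked 318 of 39477 in its list. Its SNU216 partner, at chr11:65256668-65257245, scored 70.4, above 38.1% of the SNU216 list. Only 28 bp separated the strong MKN28 peak from the one before it, chr11:65254733-65256565, the widest of the window at 1833 bp, which scored 154 and had no SNU216 partner. Together these 2 MKN28 peaks covered 99.2% of 3.36 kb, of which the SNU216 peak covered 17.2%.

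The strongest SNU216 peak, chr11:65240589-65241337, lay 24.6 to 23.9 kb before the MALAT1 start. It scored 309, above 90.3% of the SNU216 list, and its MKN28 partner at chr11:65240473-65241238 scored 158, above 68.2% of the MKN28 list. Beside it, the pair 25.7 kb before the MALAT1 start had scores of 97.05 in MKN28 and 73.7 in SNU216. A further pair 16.1 kb before the start had scores of 137 in MKN28 and 71.1 in SNU216. Between these pairs and the start, MKN28 alone had peaks of 130, 154, 81.0 and 331. The last of these, at chr11:65261010-65261699, was the highest-scoring MKN28 peak of the window without an SNU216 partner and ended 3534 bp before the start.

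No peak of either line covered the MALAT1 start of the counting rule, and the nearest peak of both lay after it. In MKN28 it ran from 858 to 1545 bp after the start (chr11:65266091-65266778) and scored 483, the second highest of the window and above 91.8% of the list. In SNU216 it ran from 1079 to 1419 bp after the start (chr11:65266312-65266652) and scored 242, again the second highest of the window and above 85.8% of the list. The site after the MALAT1 start thus ranked high in both lists. RefSeq places a second MALAT1 start, shown above in window 2, 1307 bases after the first on GRCh38.p14. Counted from the start of the counting rule, that distance falls within both peaks. Positions were not carried across builds, so whether the rule's start is the first RefSeq start was not checked. Coverage of the second start by the peaks was therefore not tested.

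NEAT1 and MALAT1 thus had peaks near their starts in both lines. The whole lists held 39477 MKN28 and 11540 SNU216 peaks, so a higher MKN28 count is not read as a difference between the lines. Within 10 kb of the NEAT1 start there were 4 MKN28 and 4 SNU216 peaks, and within 10 kb of the MALAT1 start there were 6 MKN28 and 2 SNU216 peaks. Within 50 kb there were 10 MKN28 and 6 SNU216 peaks around NEAT1, and 17 MKN28 and 6 SNU216 peaks around MALAT1. The starts are 74964 bp apart, so these 50 kb zones overlap and some peaks count for both genes.

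Most peaks of the window, 24 of 38 in MKN28 and 11 of 16 in SNU216, lay within 50 kb of either start, and others lay farther out. The most distant pair before NEAT1, at chr11:65045698-65046373 in MKN28 and chr11:65045770-65046166 in SNU216, scored 481 in MKN28 and 60.7 in SNU216. Another pair, 51.5 kb before the NEAT1 start, had a score of 50.5 in MKN28, the lowest of the window and above 1.03% of its list, and 80.6 in SNU216. After MALAT1, a pair 42.8 kb past its start scored 294 in MKN28 and 176 in SNU216. Next came the longest SNU216 gap of the window, 105 kb from 65308143 to 65413055, in which MKN28 had 7 peaks of 54.8 to 157. The last pairs, 148 and 165 kb after the MALAT1 start, had MKN28 scores of 59.2 and 71.1 and SNU216 scores of 81.4 and 98.2.

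Partner peaks often held different places in the 2 lists. The MKN28 score was the higher one in 11 of the 15 pairs (73.3%, beside 75.3% of the 6841 pairs over the whole lists). The MKN28 percentile was the higher one in the same number of pairs, 11 (73.3%), beside 67.1% of all pairs. The MKN28 score divided by the SNU216 score had a median of 1.93 here and of 1.77 over all pairs, and both shares and median were close to those of the lists as a whole. The ratio reached 20.1 at the strong MKN28 peak before MALAT1, and 0.585% of all pairs had a higher one. The next highest ratio, 7.93, belonged to the first pair of the window, 144 kb before the NEAT1 start, and 5.96% of all pairs exceeded it. The lowest ratio, 0.511, belonged to the strongest SNU216 peak, and 7.25% of all pairs had a lower one. In the other 3 pairs with a higher SNU216 score the ratio was 0.626, 0.727 and 0.724, and all 3 lay more than 50 kb from either start.

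**Figure D4:**
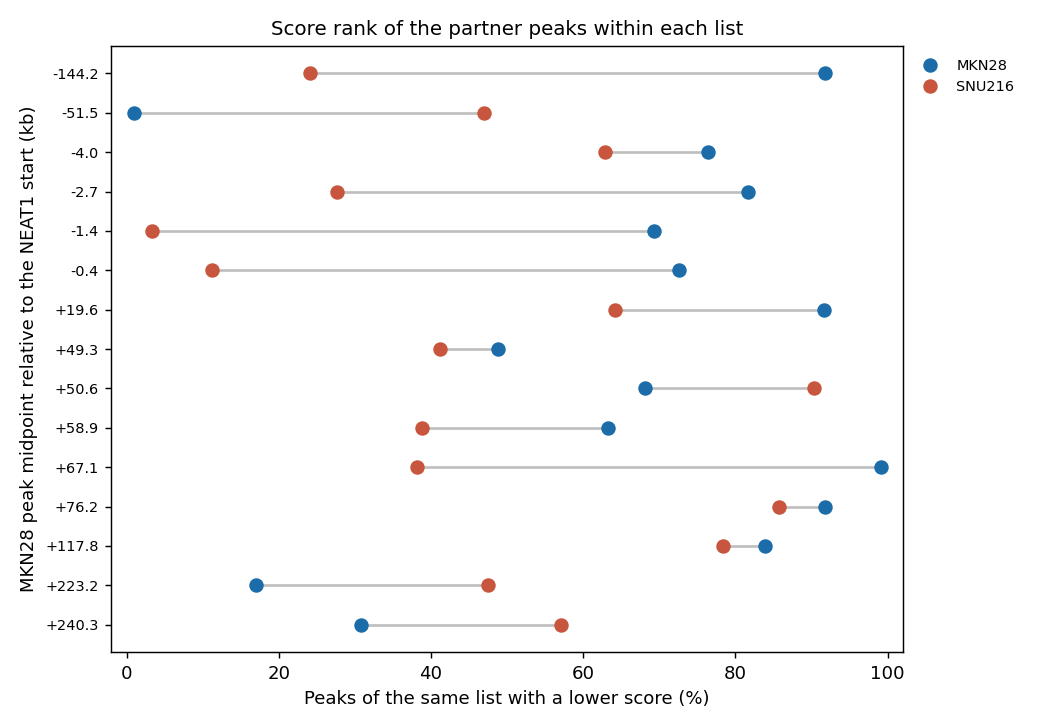
Percentage of peaks of the same list with a lower score (horizontal axis) for the 15 partner pairs, one row per pair in genome order, labelled by the distance of the MKN28 midpoint from the NEAT1 start in kb. MKN28 points lie to the right of their SNU216 partners in 11 rows, and the pair at +76.2 kb, just after the MALAT1 start, is far to the right for both lines.

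Partner peaks lay close together in position. Their midpoints were a median of 67.5 bp apart, from 11.5 to 388.5 bp, beside a median of 55.0 bp over all pairs. The widest offset belonged to the strong MKN28 peak before MALAT1. In 12 of the 15 pairs (80.0%, beside 58.8% of all pairs) the SNU216 peak lay wholly inside the MKN28 peak.

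Of the 38 MKN28 peaks, 23 had no SNU216 partner, beside 32725 of the 39477 peaks of the whole MKN28 list. Neither set was confined to weak peaks, and those of the whole list scored up to 3100. The 23 scores ran from 54.8 to 331, with a median of 135, and the 15 overlapping MKN28 peaks had a median of 182. Over the whole list, the medians were 88.6 without a partner and 226 with one. The 5 strongest of the 23 scored 331, 309, 308, 306 and 295. They lay 3.88 kb before and 13.3 kb after the MALAT1 start, 40.7 kb before and 25.1 kb after the NEAT1 start, and 131 kb before the NEAT1 start. These 5 ranked from 5473 to 6330 in the MKN28 list, so they were also among its 11540 highest-scoring peaks, as many as the SNU216 list holds. The part of sequencing depth in their absence from the SNU216 list was not tested.

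At the edges of the window, the first peaks inside were those at 65045698 in MKN28 and 65045770 in SNU216, 46.0 kb from the lower limit in both lists. Outside it, the last peaks before the lower limit scored 84.2 in MKN28 and 247 in SNU216, 13.0 and 49.0 kb away. The last peaks inside were 69.5 and 69.6 kb from the upper limit in MKN28 and SNU216, and the next ones outside, 57.3 and 79.6 kb past it, scored 61.3 and 56.0.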

How the data were processed

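TEAD4 ChIP-seq and input libraries were made from MKN28 and SNU216, 1 of each per line. Per the submitters' processing notes, the tools were Bowtie2 2.0.0, CASAVA 1.8 and MACS, and the build was hg19. No MACS version, setting, read filter or rule for duplicates is given in these sources. Each TEAD4 library has 1 list deposited by the authors, whose name pairs it with that line's input, and which gives a position and a score per peak. The scale of the score is not stated. A score of this kind rises with depth, which is unknown, so scores were ranked within 1 list, and score ratios describe these 2 libraries only. Input reads were not used here.

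Starts were converted to 1-based positions. The members and lists were chosen with earlier results of these data known. The peaks named were every SNU216 peak, every MKN28 peak that overlaps one, the 5 strongest other MKN28 peaks, and the peaks nearest to each start. Other peaks are given where they adjoin these. Overlap meant 1 shared bp, and shares carry Clopper-Pearson 95% intervals. Alternatives changed the overlap rule, the score minimum, the list length and the window. With 1 library per line no test was run. Band and chromosome limits came from circlize 0.4.16, and promoter windows and gene order from RefSeq tables on GRCh38.p14, which were matched by symbol. MALAT1 matched 2 promoter windows. No coordinates were moved between builds. The overlap code was checked on simulated data with planted overlaps. Values were computed in Python 3.11.15 with scipy 1.17.1, pandas 2.3.3, numpy 2.4.6 and matplotlib 3.10.9.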

Additional observations from a re-analysis of the deposited data

How the results depend on the processing

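Of 21 alternative values, 11 kept within 1.5 times the count or within the interval of the value reported, and 10 moved. With a score of at least 100, 25 MKN28 peaks and 5 SNU216 peaks remained, the share of MKN28 peaks with a partner was 20.0%, that of SNU216 peaks was 100%, and the SNU216 median score was 176. Fewer peaks and higher scores follow from that setting's construction. The minimum was applied to both lists, so the 5 SNU216 peaks left limit how many of the 25 MKN28 peaks can have a partner. With the MKN28 list cut to its 11540 highest-scoring peaks, or 29.2% of it, 14 MKN28 peaks remained in the window, 57.1% of them had a partner, and 50% of the SNU216 peaks had one. Where 50% of both peaks had to be shared, 62.5% of SNU216 peaks had a partner. Within 50 kb of either start, 100% did, or 11 of 11. The single SNU216 peak without a partner lay 143 kb before the NEAT1 start, so the 50 kb limit leaves it out. The 50% rule drops pairs whose SNU216 peak lies inside a much wider MKN28 peak, such as 343 bp inside 1211 bp. Shares of the whole lists under these alternative settings are not given here, so the shares of the window under them have no baseline. Midpoints within 200 bp, peaks that touch the window and joining peaks less than 500 bp apart shifted counts and shares only within those limits. No paired analysis was possible because there is a single library per line without numbered replicates, so none could be left out either. Depth is unknown, which limits every statement on a peak found in 1 list.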
